A study of Mus musculus with 8 samples.

Results

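The cytosolic ribosomal proteins are the protein components of the ribosomes that translate nuclear-encoded mRNA. Their genes were taken by name: probe sets with a single platform symbol of the form Rpl or Rps followed by a number and at most one of the letters a, x or l, the stalk genes Rplp0 to Rplp2 by the same pattern, and Rpsa. On this rule 46 of the 18193 named genes on the array were members, with 100 of its 45101 probe sets. The naming rule itself uses no measured value, and where a gene had several probe sets the brightest on average stood for it. A further 28 ribosomal protein genes, Rpl5, Rpl3 and Rplp1 among them, appeared only on probe sets that name several genes, and their own levels were not analysed here.

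The data are transcript levels in leukaemic spleen cells from 4 mice with MLL-AF10 acute myeloid leukaemia, in which the histone methyltransferase gene MLL is fused to AF10. Per the labels, every leukaemia was started with immortalised c-kit+ bone marrow stem and progenitor cells, transduced with a retrovirus and transplanted into syngeneic recipients, spelled CD57BL/6, after sub-lethal irradiation. Flow sorting on c-kit (CD117), the receptor tyrosine kinase for stem cell factor, divided the splenocytes of each mouse into a c-kit high fraction, CD117pos, and a c-kit negative fraction, CD117neg. Each mouse gave 1 Affymetrix array per fraction, so 4 CD117pos arrays were set against 4 CD117neg arrays from the same mice, called here by the endings of their titles, _948, _951, _952 and _953. Both fractions came from the same animals and so shared the fusion and treatment of their leukaemia, and the sources used here give no ages. The leukaemias grew from transduced and immortalised donor cells, and the labels do not say whether the 4 leukaemias came from separate transductions. Whether the sorted fractions also held cells of the recipient was not tested.

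A ribosome has a small subunit, which holds the mRNA and reads its codons, and a large subunit, which joins the amino acids. Ribosomal protein mRNAs begin with a run of pyrimidines at the 5′ end, the terminal oligopyrimidine tract, through which mTOR signalling and the RNA-binding protein LARP1 set their translation and stability together. In blood formation, loss of 1 copy of several of these genes causes Diamond-Blackfan anaemia, a failure of red cell production, and ribosomal proteins that are not built into ribosomes can bind MDM2 and raise p53.

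The start sites of the genes that rose are shown first, because the pyrimidine tract is the sequence that these mRNAs are known to share. RefSeq promoter windows, build GRCm38.p6, were found for 40 of the 46 genes. For a gene with several annotated starts only the one farthest upstream was searched. In 21 of these 40 (52.5%), a run of 7 or more pyrimidines (C or T) on the sense strand lay within the 15 bases on either side of the annotated start, against 18.4% of 27025 mouse promoters. The same search on the other strand found 0 of 40, against 20% of all promoters. The letters CCGGAAG, the core recognised by ETS family factors, stood on either strand within 300 bases in 20 of 40 genes (50%), against 9.14% of all promoters. The 30 bases around the start follow for the 4 genes that were higher in CD117pos cells, with the pyrimidine run in capitals.
Rpl12, chr2:32961697-32961726, + strand: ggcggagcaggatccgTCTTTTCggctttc
Rpl14, chr9:120571502-120571531, + strand: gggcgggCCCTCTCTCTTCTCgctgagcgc
Rps6, chr4:86857353-86857382, - strand: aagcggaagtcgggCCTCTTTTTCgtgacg
Rps27l, chr9:66946071-66946100, + strand: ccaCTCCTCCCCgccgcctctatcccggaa

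For comparison, the same window is given for 3 genes that were not past the threshold. Rpl7a and Rps18 hold runs at least as long as those of Rpl12, and Rps19 holds none.
Rpl7a, chr2:26910792-26910821, + strand: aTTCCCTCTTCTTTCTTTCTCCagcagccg
Rps18, chr17:33955651-33955680, - strand: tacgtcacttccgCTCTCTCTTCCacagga
Rps19, chr7:24884577-24884606, + strand: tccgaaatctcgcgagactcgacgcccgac
A run was present in 4 of the 4 genes that rose and in 17 of the 36 others with a window. CCGGAAG was present in 2 of those 4 and in 18 of the 36. These matches are descriptions of the letters near the farthest upstream annotated starts. A window without a run does not show that the mRNA lacks the tract.

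Kit, the gene of the sorted receptor, had an intensity of 28.6 ± 9.73 (SD, n = 4) in CD117neg and 751 ± 127 in CD117pos, a difference of 4.12 ± 0.14 (SE) on the log2 scale. Of the myeloid markers, 3 of 3 leukocyte, 3 of 4 neutrophil and 3 of 4 monocyte and macrophage genes were lower in CD117pos (Mmp8 -6.06, Csf1r -3.30). The other progenitor markers, Cd34 and Flt3, had differences of -0.85 ± 0.26 (adjusted p = 0.070) and -0.72 ± 0.43 (adjusted p = 0.31). The summed neutrophil markers ran from 27476 to 30336 in CD117neg and from 8066 to 16602 in CD117pos. Of 18 measured markers of B, T, NK, erythroid, megakaryocytic and stromal cells, 0 passed the test and 16 had means under 100. Array medians lay between 27.5 and 32.8. The ratios of 3′ to 5′ control probe sets, a sign of RNA integrity, were 3.21 for Actb and 5.44 for Gapdh on the CD117pos array of mouse _951, against at most 2.08 and 3.23 on the other 7 arrays. A two-sided exact permutation test of the ratios between fractions gave p = 0.5 for Actb and p = 1 for Gapdh. With 4 pairs its smallest p is 0.125, so it could not pass 0.05 and leaves a difference in RNA integrity undecided. In sorted bulk samples, a smaller share of cells of a type and less RNA per cell cannot be told apart, and the part of the myeloid marker difference in the ribosomal protein values was not tested.

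On the brightest probe set of each gene, most cytosolic ribosomal proteins had small differences in signal between c-kit high and c-kit negative splenocytes of these leukaemias. Of the 46 genes, 4 were higher in CD117pos (8.7%), Rpl12, Rpl14, Rps6 and Rps27l, and 0 were lower, at an adjusted p under 0.05 (limma with the mouse as a block, Benjamini-Hochberg over all 18193 genes). Over all named genes, 8.36% were higher and 13.8% lower at the same threshold, so the share of ribosomal protein genes that rose was near the background in this fit. It was 17.4% against 8.55% with an intensity trend in the variance model, 15.2% against 9.53% with a pseudocount of 64, and 17.4% against 13.4% under quantile normalisation. In other settings it was below the background, at 12.5% against 17.3% with a mean intensity of at least 50, and 8.7% against 11.7% without mouse _951. At an unadjusted p under 0.05 there were 7 higher and 1 lower, together 17.4%, against 34.7% of all named genes. All differences are CD117pos minus CD117neg on the scale log2(intensity + 16), which understates changes of dim genes, and folds are taken from it. The median difference over the 46 genes was 0.08, against -0.01 over all named genes. The count depended on the mice, as it did over all named genes. Without mouse _948, 2 genes (4.35%) were higher, against 2.47% of all named genes. Without mouse _953 it was 1 (2.17%), against 2.42%. With the CD117pos array of mouse _951 dropped and the block left out, 4 (8.7%) were higher, against 11.9%.

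**Figure D1:**
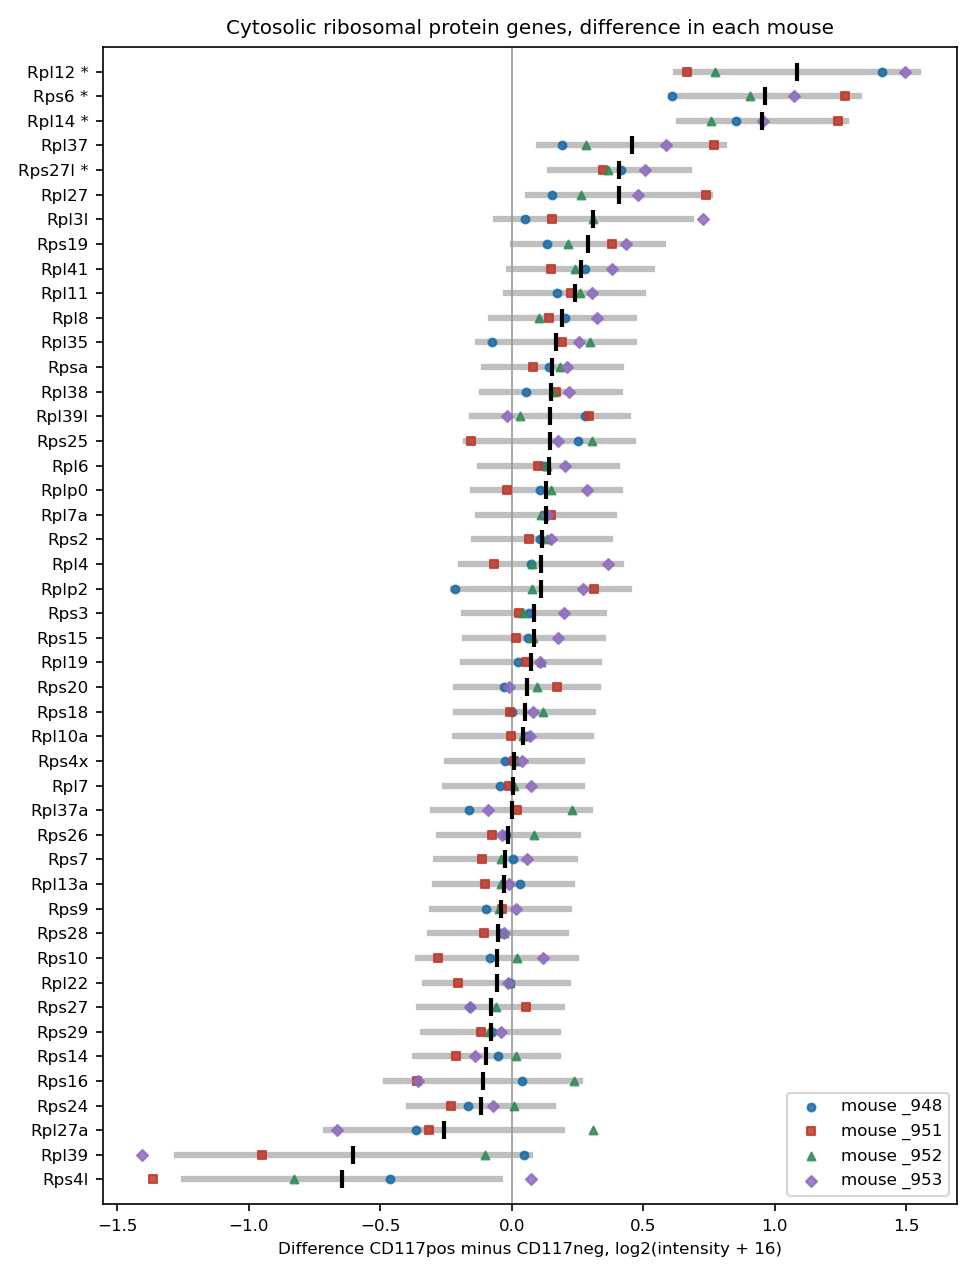
Difference between CD117pos and CD117neg on the log2(intensity + 16) scale (horizontal axis) for each of the 46 genes (vertical axis, ordered by difference). Coloured points are the 4 mice, black bars the fitted difference, grey bands its 95% confidence interval, and an asterisk an adjusted p under 0.05; most genes lie within 0.5 of 0, and Rpl12, Rps6 and Rpl14 stand near 1.

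In each mouse the middle of the set lay close to 0. The median difference over the 46 genes was 0.05 in mouse _948, 0.02 in _951, 0.11 in _952 and 0.13 in _953. Of the 46 genes, 29, 26, 37 and 32 were higher in the CD117pos array of these mice in the same order. In 4 of 4 mice, 19 genes were higher in CD117pos (41.3%), against 18.5% of all named genes. In 4 of 4 mice, 3 genes were lower (6.52%), Rps29, Rpl22 and Rps28, against 25.4% of all named genes. All 4 CD117pos arrays were above all 4 CD117neg arrays for 12 genes (26.1%), against 10.4% of all named genes, and below them for Rps29 alone (2.17%), against 17.2%. The moderated F-test of the mouse terms passed for 0 of the 46 genes and for 0 (0%) of all 18193, and 0 of the 46 were under an unadjusted p of 0.05.

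Among the 22 large subunit genes, 2 rose, 17 had a difference above 0, and the median was 0.14. The 2 of 22 are near the 8.36% of all named genes that were higher, and 48.7% of all named genes had a difference above 0. Rpl12, whose protein lies at the base of the ribosomal stalk where translation factors bind, had intensities of 118, 216, 159 and 125 in the CD117neg arrays of mice _948, _951, _952 and _953 and of 341, 352, 283 and 381 in their CD117pos arrays. The fractions did not overlap, and mouse _951 had the highest CD117neg value. The difference was 1.09 ± 0.19 (SE), a 2.12-fold rise with an adjusted p of 0.012, in 4 of 4 mice. Its adjusted p was 0.068 without mouse _948 and 0.062 without mouse _953.

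Rpl14, another protein of the large subunit, had intensities of 284, 272, 265 and 262 in CD117neg and 526, 664, 459 and 524 in CD117pos, in the same order of mice. Its CD117neg values lay within a narrow band, and every CD117pos value stood well above it. The difference was 0.95 ± 0.13, a 1.93-fold rise with an adjusted p of 0.0062. Rpl14 was the member past the threshold under all 15 alternative settings tried.

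Among the 22 small subunit genes, 2 rose, 11 had a difference above 0, and the median was -0.002. Both counts are near the background, as 8.36% of all named genes were higher and 48.7% had a difference above 0. Rps6 is the ribosomal protein that S6 kinases phosphorylate downstream of mTOR. Its intensities were 873, 843, 805 and 782 in CD117neg and 1339, 2050, 1523 and 1662 in CD117pos. The fractions did not overlap, and the highest CD117pos value came from mouse _951, whose CD117pos array also had the highest 3′ to 5′ ratios. The difference was 0.96 ± 0.14, a 1.95-fold rise with an adjusted p of 0.0084, and it was 0.0535 without mouse _953. The gene's other probe set had a mean intensity of 7.43, near the floor, and with both averaged the difference was 0.50 with an adjusted p of 0.051.

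Rps27l encodes a near-copy of Rps27 and is known as a gene that p53 induces. Its intensities were 2110, 2192, 2113 and 2101 in CD117neg and 2819, 2791, 2728 and 2996 in CD117pos. Every CD117pos value was above every CD117neg value, with little spread in either fraction. The difference was 0.41 ± 0.11, a 1.33-fold rise with an adjusted p of 0.045. This call lay at the edge of the threshold: the adjusted p was 0.162, 0.142 and 0.157 without mice _948, _952 and _953, and 0.106 with a pseudocount of 1. Rpl3l and Rpl39l, near-copies of Rpl3 and Rpl39, had means of 7.31 and 4.32 in CD117neg and 13.1 and 6.28 in CD117pos, and neither passed the test. Rps4l, a near-copy of Rps4x, was lower in 3 of 4 mice and did not pass either.

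**Figure D2:**
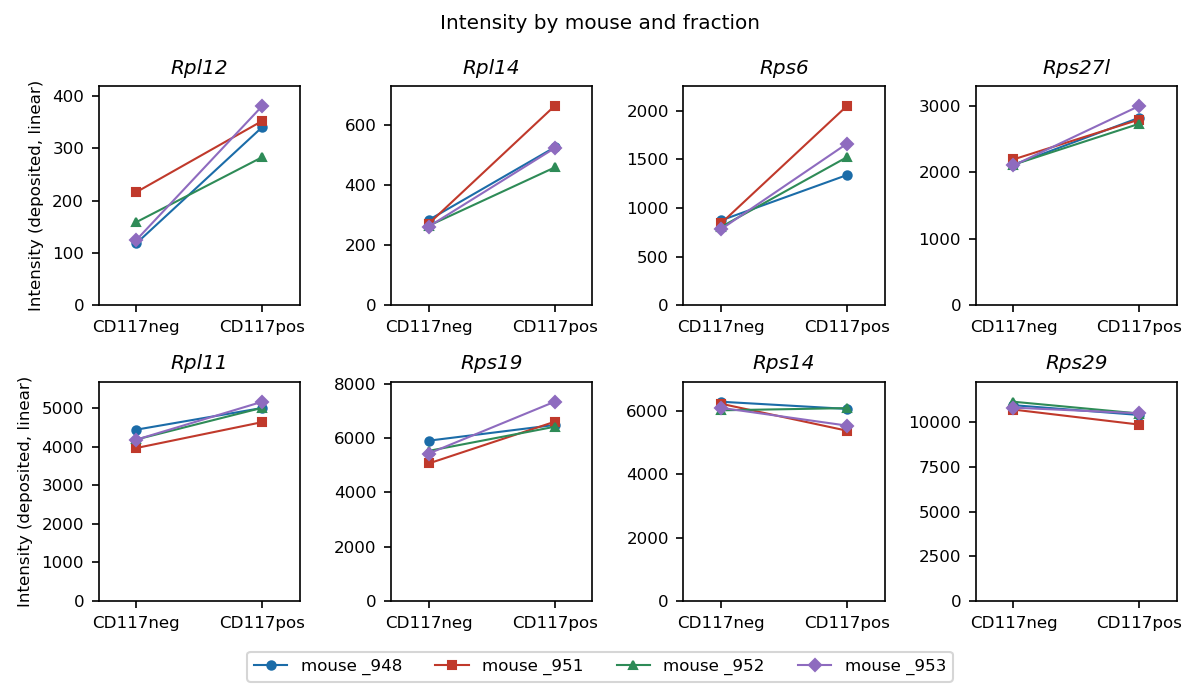
Deposited linear intensity (vertical axes, each starting at 0) in the CD117neg and CD117pos fraction of each mouse for 8 ribosomal protein genes, with lines joining the arrays of 1 mouse. The 4 genes that rose (top) are separated between fractions, while Rpl11, Rps19, Rps14 and Rps29 (bottom) moved by small amounts, with Rps29 lower in CD117pos in all 4 mice.

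Several members were higher in CD117pos in all 4 mice without passing the adjusted threshold. Rpl37 had a difference of 0.46 ± 0.14 (adjusted p = 0.074) and Rpl27 one of 0.41 ± 0.14 (adjusted p = 0.096). Rpl11, which joins the 5S ribonucleoprotein and is one of the proteins that bind MDM2, had intensities of 4447, 3970, 4191 and 4188 in CD117neg and 5010, 4642, 5015 and 5171 in CD117pos. Each mouse was higher in CD117pos, the fractions did not overlap, and the difference was 0.24 ± 0.11 (adjusted p = 0.18). Rpl6, Rpl8, Rpl38 and Rpsa, the laminin receptor homologue that sits in the small subunit, were also separated between fractions, with differences between 0.14 and 0.19 and adjusted p-values between 0.28 and 0.41. Rpl41, which encodes a very short peptide of the ribosome, overlapped between fractions, at 0.26 ± 0.11 (adjusted p = 0.16). The stalk genes Rplp0 and Rplp2, whose products recruit elongation factors, had differences of 0.13 ± 0.11 and 0.11 ± 0.14 and were higher in 3 of 4 mice each.

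Of the genes mutated in Diamond-Blackfan anaemia, 11 were measured, Rpl11 and Rpl27 above among them. Of these 0 passed the test, where 8.36% of all named genes were higher and 13.8% lower, and the median difference was -0.02. At an unadjusted p under 0.05 there were 2 of the 11, where 34.7% of all named genes were. Rps19, the gene most often mutated in that disease, had intensities of 5905, 5067, 5530 and 5432 in CD117neg and 6483, 6602, 6417 and 7340 in CD117pos. The fractions were separated, by 0.29 ± 0.12, with an adjusted p of 0.14. Rps14, the ribosomal gene of a myelodysplastic syndrome with a chromosome arm deletion, had 6285, 6221, 6014 and 6092 in CD117neg and 6058, 5371, 6083 and 5531 in CD117pos. Its fractions overlapped, and the difference was -0.10 ± 0.11 (adjusted p = 0.60). Rps24 had a difference of -0.12 ± 0.11 (adjusted p = 0.53).

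Apart from Rpl27a, the lower values were either small or in dim probe sets. Rps29, a zinc-binding protein of the small subunit head, had intensities of 10955, 10710, 11149 and 10818 in CD117neg and 10407, 9870, 10488 and 10501 in CD117pos. It was lower in CD117pos in 4 of 4 mice without overlap, by a difference of -0.08 ± 0.10 (adjusted p = 0.65). Its direction turned under quantile normalisation (0.04) and median centring (0.01), each of which turned the sign of 10 of the 46 genes. Rps4l and Rpl39 had the most negative differences, -0.65 ± 0.24 and -0.60 ± 0.27, at means of 19.1 and 13.5 in CD117neg and 4.87 and 1.64 in CD117pos. Both were lower in 3 of 4 mice, and neither passed the test. Rpl27a, at -0.26 ± 0.18, was lower in 3 of 4 mice and overlapped between fractions. Rps16 had means of 9.21 and 7.33 and a difference of -0.11 ± 0.15.

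The differences varied with the signal of the probe set. Of the 46 genes, 26 had a mean intensity of 5000 or more, and 0 of these passed the test (1, Rps19, at an unadjusted p under 0.05). Of all 149 named genes this bright, 2.01% were higher, so a count of 0 is near the background. Their differences ran from -0.12 to 0.29. On the representing probe sets, every 95% confidence interval among these 26 lay between -0.39 (Rps24) and 0.58 (Rps19). These outermost bounds are a 1.49-fold rise and a 1.31-fold fall, and the intervals are per gene, not adjusted for taking 26 together. Dimmer probe sets of Rps3 and Rpl22, both among the 26, had differences of 1.06 and 1.05. Of the 8 genes between 2000 and 5000, 1 was higher, against 5.66% of all named genes in that range. Of the 6 genes between 100 and 2000, 3 were higher, Rpl12, Rpl14 and Rps6, against 16.2% of all named genes there, and the median was 0.70. Of the 6 genes under 100, 0 passed, against 2.79% higher among all. The 26 bright genes had intensities from 4521 to 11149, while the highest value of any probe set on an array was between 10972 and 12464. Whether a ceiling of the signal limited their differences was not tested.

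The same was seen over all 100 probe sets of these genes, tested in a fit of all 45037 probe sets other than controls. There, 13 probe sets of 13 genes were higher in CD117pos and 0 were lower, against 5.6% higher and 10.9% lower among all probe sets. With mean intensities between 100 and 2000, 10 of 18 probe sets were higher, against 1753 of 13526 among all probe sets in that range, with a median difference of 0.50. Above this range 0 of 63 were higher, 25 between 2000 and 5000 and 38 at 5000 or more, against 70 of 1518 and 3 of 287 among all probe sets in these ranges, so that 0 of 38 is near the background. Below 100 there were 3 of 19, against 698 of 29706. Over the 81 probe sets with a mean of at least 100, the difference correlated with the log2 mean intensity at r = -0.65 (rho = -0.47). Over 15331 probe sets of all kinds the values were r = -0.07 and rho = -0.08. Probe sets of 1 gene share their arrays and target, so that these correlations are descriptions. The count of 13 was 3, 2 and 1 without mice _948, _952 and _953, and 6 with a pseudocount of 1. Over all named genes the higher count, 1521 in the main fit, was 450, 611, 440 and 997 in these settings.

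**Figure D3:**
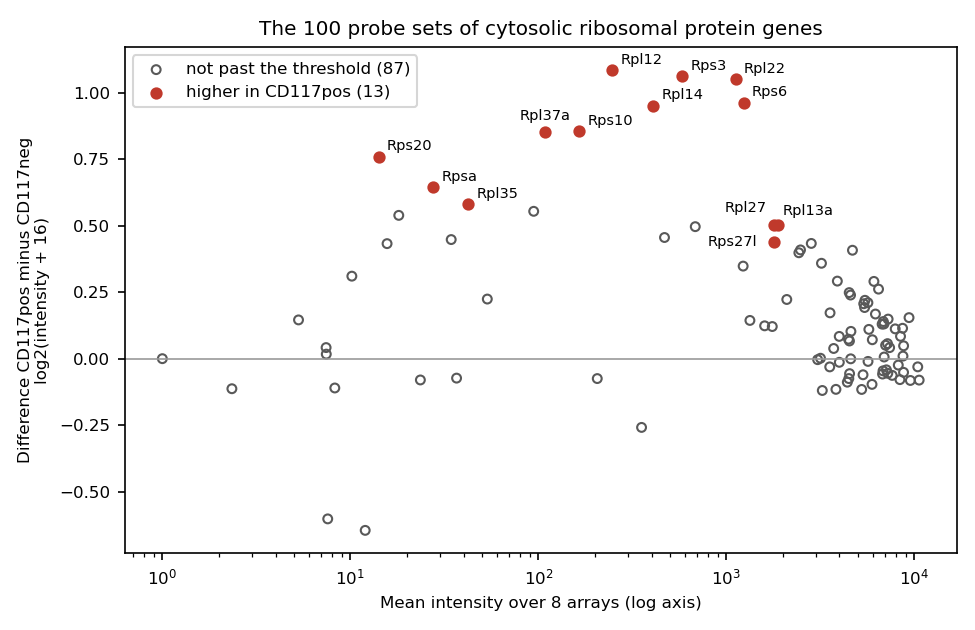
Difference between CD117pos and CD117neg on the log2(intensity + 16) scale (vertical axis) against mean intensity over 8 arrays (horizontal log axis) for the 100 probe sets of ribosomal protein genes. Filled points are the 13 with an adjusted p under 0.05 in the fit of all probe sets; all lie below a mean of 2000, and the brightest probe sets lie near 0.

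Probe sets of 1 gene often gave different differences. Of the 46 genes, 23 had several probe sets, and of their 54 other probe sets 39 had a higher difference than the one that represented the gene. Among the 46 representing probe sets 3 were higher in the fit of all probe sets, and among the other 54 there were 10, against 5.6% of all probe sets. In 9 genes the differences spread over more than 0.5, and in 9 over less than 0.1.

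Rps3, a small subunit protein at the mRNA entry channel, is an example. Of its 3 probe sets, the one with the middle signal had intensities of 385, 327, 321 and 422 in CD117neg and 729, 1164, 595 and 705 in CD117pos, a difference of 1.06. The fractions did not overlap on this probe set, and its highest value was from mouse _951. The probe set that represented the gene had a difference of 0.08, and the dimmest one had 0.22. Rpl22, a large subunit protein needed for lymphoid development, had 722, 674, 831 and 679 in CD117neg and 1645, 1383, 1539 and 1511 in CD117pos on its dimmest probe set, a difference of 1.05. On the representing probe set the difference was -0.06, lower in 4 of 4 mice, and on the remaining one it was 0.04. Rps10 (0.86 against -0.06), Rpl37a (0.85 against -0.00), Rps20 (0.76 against 0.06), Rpsa (0.65 against 0.15), Rpl35 (0.58 against 0.17) and Rpl13a (0.50 against -0.03) had the same order, the first value from a probe set past the threshold and the second from the representing one. The probe sets past the threshold had mean intensities of only 14.2 for Rps20, 27.5 for Rpsa and 42.5 for Rpl35, so these differences rest on low signals. Rps6 had the opposite order: its representing probe set had a difference of 0.96 and its other one, with a mean of only 7.43, had 0.04.

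By contrast, the 3 probe sets of Rps27l gave 0.40 to 0.44, and those of Rpl27 gave 0.41 to 0.50. The 3 probe sets of Rps29 gave -0.08 each and the 3 of Rps28 between -0.06 and -0.05. For Rps24, the largest difference of its 6 probe sets was 0.55, and with probe sets that can share sequence with other genes left out it represented the gene, with an adjusted p of 0.058. An identifier ending in _x_at is the design's mark for probes that can match other genes. Of these probe sets, 2 of 40 were higher, near the 5.6% over all probe sets, and 7 of 31 ending in _at alone. Their median mean intensities were 5523 and 94.5. Ribosomal protein genes have many near-identical processed copies in the genome, and which transcripts each probe set captured was not tested.

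**Figure D4:**
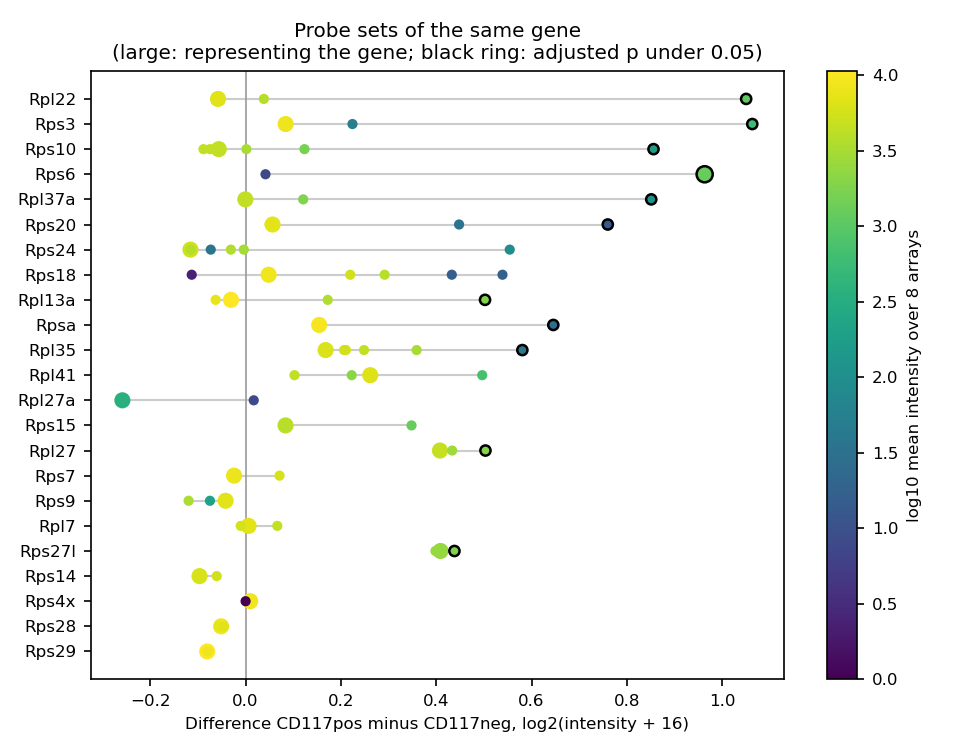
Difference between CD117pos and CD117neg on the log2(intensity + 16) scale (horizontal axis) of each probe set of the 23 genes with several (vertical axis, ordered by spread), coloured by log10 mean intensity. Large points represent the gene and black rings mark an adjusted p under 0.05; Rpl22, Rps3 and Rps10 have a dimmer probe set near 0.9 to 1.1 beside a representing one near 0.

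A further 110 probe sets name a ribosomal protein gene together with another gene and cannot be given to either. Of these, 11 were higher, 1 was lower and the median difference was 0.08, where 5.6% of all probe sets were higher and 10.9% lower. In the range from 100 to 2000, 8 of 17 were higher, against 1753 of 13526 among all probe sets. At 5000 or more there were 0 of 56, near the 3 of 287 among all probe sets. Of ribosomal protein genes whose symbols fall outside the naming rule, 3 of 7 listed were measured and 0 passed. Fau, which is made as a ubiquitin-like fusion, had a difference of -0.19 ± 0.11 and was lower in 4 of 4 mice. Rpl22l1, the paralogue of Rpl22, had 0.32 ± 0.17, and Rpl7l1 had 0.20 ± 0.13.

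Factors that carry ribosomal proteins to the ribosome and build them in included many that were higher in CD117pos. Of 23 measured, 11 were higher, 0 were lower and the median was 0.49. Over all named genes, 8.36% were higher and 13.8% lower, and 16.2% were higher among those with means between 100 and 2000. Tsr2, the escort of Rps26, went from 189 ± 16.8 to 502 ± 79.2 (SD, n = 4), a difference of 1.33 ± 0.14 with an adjusted p of 0.0035. Znhit3 (1.15 ± 0.19), a factor of small nucleolar ribonucleoprotein assembly, and Grwd1 (1.08 ± 0.16), the escort of Rpl3, rose as well. So did Nvl (0.89 ± 0.11), Heatr3 (0.85 ± 0.18), which imports Rpl5, and Pdcd2 (0.82 ± 0.12), the escort of Rps2. Rps2 itself had a difference of 0.11 ± 0.11, and Rps26 one of -0.01 ± 0.11. The count of 11 was 3, 6 and 3 without mice _948, _952 and _953, and 6 with a pseudocount of 1. The shares of all named genes that were higher in these settings were 2.47%, 3.36%, 2.42% and 5.48%. The difference in share between lists was not tested.

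Nucleolar biogenesis factors, which make and process ribosomal RNA, rose in 17 of 36 measured genes, with 0 lower and a median of 0.52. The shares over all named genes were 8.36% higher and 13.8% lower, and 16.2% higher at means between 100 and 2000. The 6 nucleolar factors with the largest differences were Wdr12 (1.10 ± 0.11), Wdr43 (1.04 ± 0.14), Utp20 (0.99 ± 0.18), Nop58 (0.96 ± 0.15), Gnl3 (0.96 ± 0.13) and Ppan (0.87 ± 0.15). The median over this list was 0.76, 0.30, 0.55 and 0.61 in mice _948, _951, _952 and _953, each above the median of the 46 ribosomal protein genes in the same mouse. The 2 sets differ in signal, as 0 of the 36 nucleolar genes and 26 of the 46 had means of 5000 or more. The 6 ribosomal protein genes with means between 100 and 2000 had medians of 0.43, 0.72, 0.53 and 0.77 in the same order of mice. The count of 17 was 5, 7 and 6 without mice _948, _952 and _953, where 2.47%, 3.36% and 2.42% of all named genes were higher. It was 26 without mouse _951, and 28 when only the CD117pos array of that mouse was dropped and the block left out. All named genes had 11.7% and 11.9% higher in these 2 fits.

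**Figure D5:**
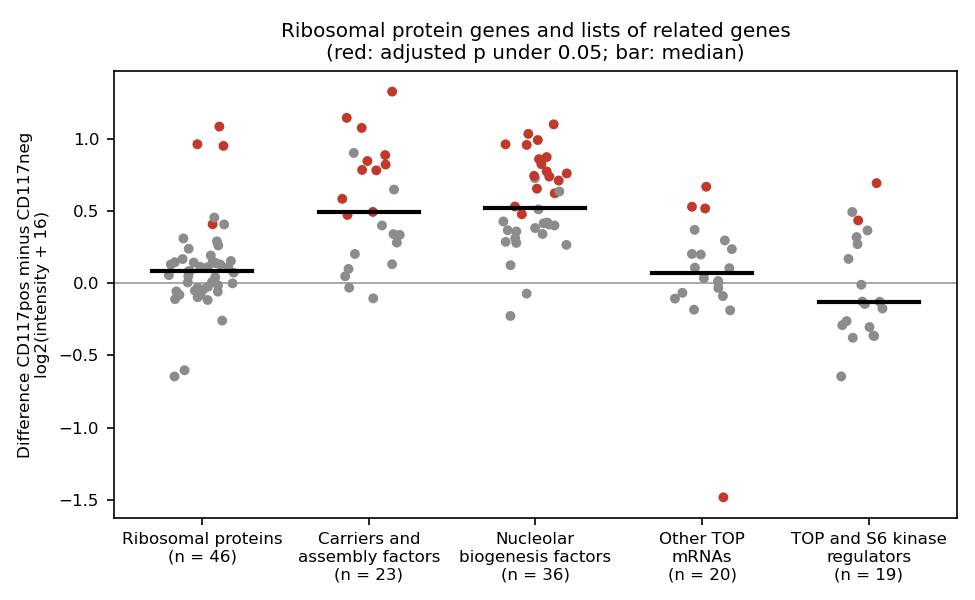
Difference between CD117pos and CD117neg on the log2(intensity + 16) scale (vertical axis) for the 46 ribosomal protein genes and 4 lists of related genes; each point is 1 gene, red an adjusted p under 0.05, the bar the median, and TOP the terminal oligopyrimidine tract. Medians are 0.08 for ribosomal proteins, 0.49 for carriers and assembly factors, 0.52 for nucleolar factors, 0.07 for other TOP mRNAs and -0.13 for TOP and S6 kinase regulators. The lists differ in signal: 26 of the ribosomal protein genes and 0 of the carriers and nucleolar factors have mean intensities of 5000 or more.

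In the branch that links the 5S ribonucleoprotein to p53, 7 genes were measured, of which 2 rose and 2 fell. Over all named genes, 8.36% rose and 13.8% fell. Rrs1 and Rpf2, which bring the 5S particle into the ribosome, rose by 0.58 ± 0.11 each. Cdkn1a, the p53 target that encodes the cell cycle inhibitor p21, went from 708 ± 124 to 235 ± 110, a difference of -1.64 ± 0.23 (adjusted p = 0.0071). Mdm2, both a p53 target and its ubiquitin ligase, had a difference of -1.47 ± 0.34 (adjusted p = 0.029). In mouse _951, whose CD117pos array had the highest 3′ to 5′ ratios, Cdkn1a had -2.49 and Mdm2 -2.79. In the other mice Cdkn1a had -1.22 to -1.47 and Mdm2 -0.98 to -1.10. Mdm4 and Ccng1, also on the list, had -0.38 ± 0.23 (adjusted p = 0.31) and -0.23 ± 0.16 (adjusted p = 0.38). Rps27l, also p53-inducible, rose. Without mice _948, _952 or _953, 0 of this list were higher and 1 was lower. Of all named genes, 2.47%, 3.36% and 2.42% were higher in these fits.

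Of 20 other measured genes whose mRNAs are known to carry the pyrimidine tract, Fau among them, 3 were higher, 1 was lower and the median was 0.07. The shares over all named genes were 8.36% higher and 13.8% lower. Hnrnpa1 (0.67 ± 0.12), Eif3h (0.53 ± 0.13) and Eif4b (0.52 ± 0.11) rose, and Vim, the intermediate filament vimentin, fell by 1.48 on the log2 scale. The elongation factor gene Eef1a1 had a difference of -0.07 ± 0.11 and Tpt1 one of -0.09 ± 0.11. Of 19 measured regulators of these mRNAs and S6 kinases, 2 were higher, Larp4 (0.69 ± 0.12), which binds poly(A) and stabilises mRNA, and the cap-binding factor Eif4e (0.44 ± 0.11). None was lower, and the list's median was -0.13. The 2 of 19 that were higher are near the share of 8.36% over all named genes. Larp1 had 0.32 ± 0.12 (adjusted p = 0.11) and Mtor -0.14 ± 0.12 (adjusted p = 0.48). Without mice _948 or _953, 0 genes were higher in either list, against 2.47% and 2.42% of all named genes. Without mouse _952, 1 tract gene and 0 regulators were higher, against 3.36%.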

How the data were processed

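The deposited values were one linear intensity per probe set and array, floored at 1. Per the labels' protocols, polyA RNA was amplified in a pair of cycles, labelled with biotin and hybridised to 1-colour Affymetrix arrays. The sources used here do not say how probes were summarised or arrays scaled, and the intensities were used as the authors deposited them. Arrays have no read depth, and their number limits the precision.

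Of the probe sets, 34945 other than the 64 controls had 1 symbol in the platform annotation. Each gene was represented by the probe set with the highest mean log2 value. The values were transformed as log2(intensity + 16) and fitted with lmFit and eBayes of limma 3.58.1 (R 4.3.3), two-sided, with the mouse as a block, since the design text says each mouse gave both fractions. The Benjamini-Hochberg adjustment ran over all genes tested, and the threshold was 0.05. As a check of the pairing, deviations from the fraction means correlated at 0.21, 0.22, 0.27 and 0.12 across genes within mice _948, _951, _952 and _953, and at most at 0.11 between mice. Over the 46 genes alone the values within mice were -0.013, 0.13, -0.006 and 0.069, so the pairing rests on the design. The fit was tested on simulated data, in which small changes were called less often than large ones, so a gene not past the threshold is not shown to be unchanged. Promoter windows came from RefSeq (250 bases before to 50 after the start), at the farthest upstream annotated start of each gene, and were searched with Python 3.11.15. Figures used matplotlib 3.10.9.

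The ribosomal protein genes, role groups and lists were chosen with earlier results of these data known. Named genes are Kit, members past the threshold, the 5 largest other rises and falls, members without overlap between fractions, small role groups, and at most 6 genes past the threshold per list. Other genes named with values (such as Mmp8, Csf1r, Larp1, Mtor, Eef1a1, Tpt1, Rps26 and Rps2) and the probe set comparisons within genes were picked with their values in view, after seeing the data. Alternatives were other scalings, pseudocounts, probe set rules and variance models, a filter on low genes, the fit without the block, and leaving out each mouse or the CD117pos array of mouse _951.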

Additional observations from a re-analysis of the deposited data

Results flagged for a closer look

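Of 54 groups of 4 arrays looked at, 6 held an array far from the other 3, where chance alone gives about 1 in 20. On the CD117pos array of mouse _951, the 3′ to 5′ ratio was 3.21 for Actb (1.72 to 1.91 on the other CD117pos arrays) and 5.44 for Gapdh (2.56 to 2.77). Rps29 had its lowest CD117pos intensity on the same array, 9870, against 10407 to 10501 on the others. Among CD117neg arrays, the Gapdh ratio of mouse _948 was 2.76 (others 3.16 to 3.23). Rpl41 was 6346 in the CD117neg array of mouse _952 (others 5659 to 5770), and Rps27l was 2192 in that of mouse _951 (others 2101 to 2113).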

How the results depend on the processing

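Of the 46 genes, 8 were higher under quantile normalisation, 7 with a pseudocount of 64 and 8 with an intensity trend, and 1 to 4 when a mouse was left out. None was lower under any of the 15 alternatives. Without the replicate block, 6 of the genes and 18 of their probe sets were higher, and 1525 of all genes were higher and 2540 lower. Over all genes, 2438 were higher under quantile normalisation and 997 with a pseudocount of 1, 440 to 2130 with a mouse left out (1219 to 2985 lower). The median of the 46 genes was 0.17 under quantile normalisation, 0.18 with median centring (where the median of all genes was 0.06 and 0.08) and 0.14 with the mean of all probe sets, and 0.055 to 0.091 with a mouse left out. Of their probe sets, 23 were higher under quantile normalisation, 6 with a pseudocount of 1, and 1 to 13 with a mouse left out. Over the 46 genes, 10 signs turned under quantile normalisation, 10 with median centring, which shifts all genes together, 6 with the mean of all probe sets, 4 without _x_at and _s_at probe sets, 2 with the CD117pos array of mouse _951 left out, and 1 and 3 without mice _948 and _951. Without mouse _953, 1 turned upward and 2 downward. None of these was past the threshold in either fit. Among the genes named by rule they were Rps14 (0.015), Rps24 (0.037) and Rps29 (0.042) under quantile normalisation, Rps29 under median centring (0.013), and Rps24 with the mean of all probe sets (0.036) and without _x_at and _s_at probe sets (0.55). The causes were not tested. Rpl11, Rpl27, Rpl37, Rpl41 and Rps19 passed the threshold under 2 to 4 alternatives each.

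In the lists, the higher counts were as follows. For 5S and p53 genes it was 1 with a pseudocount of 1, where 1 was lower, and 0 to 2 with a mouse left out (1 to 2 lower). For carriers it was 6 with a pseudocount of 1 and 3 to 11 with a mouse left out. For nucleolar factors it was 28 with the CD117pos array of mouse _951 left out, and 5 to 26 with a mouse left out. For other tract mRNAs it was 6 under quantile normalisation, 1 with a pseudocount of 1, 6 with one of 64, 5 with an intensity trend, 6 without that array, and 0 to 3 with a mouse left out. For regulators it was 5 under quantile normalisation, 4 with median centring, 1 with a pseudocount of 1, 4 with one of 64, and 0 to 3 with a mouse left out. Regulators that were lower numbered 2 with a pseudocount of 64, with a mean intensity of at least 50, with the mean of all probe sets and with an intensity trend. They numbered 1 without _x_at and _s_at probe sets, without the block and with that array left out, and 0 to 1 with a mouse left out. The fits with a mouse left out have 3 pairs. Signals near the floor of 1 limit what dim genes such as Rpl39 and Rps4l can show.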
